A study of Homo sapiens with 6 samples.

Results

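The keratins are described here as they were counted by RNA-seq in cells that the study names paclitaxel (PTX)-resistant MDA-MB-231 breast cancer stem-like cells (BCSC). Libraries with and without LINC00115 knockdown (KD) were compared. The keratins were taken as the rows of the count table whose symbol is Krt followed by digits alone, which gave 29 of 22989 rows. Another 9 rows that begin with Krt were left out by this pattern, namely Krt6a, Krt6b, Krt33b, 3 keratin-associated proteins (Krtap), Krtcap2, Krtcap3 and Krtdap. Of the 29 keratins, 16 were type I, 13 were type II, and 2 (Krt77 and Krt84) had no count in any library.

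MDA-MB-231, a line of human breast cancer of the triple-negative kind, has a mesenchymal-like profile. Its BCSC were sorted for high aldehyde dehydrogenase activity. The study states that its KD RNA-seq was of PTX-resistant BCSC of this line, and all 6 libraries are taken as such here. The library titles give only the group and the replicate. The 3 KD libraries carry a short hairpin RNA against the long noncoding RNA LINC00115 and are labelled sh115-1, sh115-2 and sh115-3. The study's legend for this RNA-seq names a single hairpin, sh115-2, for the KD cells, while its text also uses sh115-1 and sh115-2 as names of different hairpins. The 3 control libraries are labelled wild type, and a control hairpin (shC) is named in legends of the study's other experiments. Nothing states that the libraries of a group came from separate cultures, so p-values measure the spread between these libraries, which may be technical.

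Keratins are the intermediate filament proteins of epithelial cells. Each filament is built from heterodimers of an acidic type I and a basic type II keratin, so the genes are used in partnerships, such as Krt18 with Krt8 in simple epithelia, Krt14 with Krt5 in the basal layer of stratified epithelia, Krt10 with Krt1 in cornifying epidermis and Krt13 with Krt4 in moist stratified linings such as the oesophagus. Keratin filaments are anchored to neighbouring cells at desmosomes and to the basement membrane at hemidesmosomes. Mesenchymal-like cells rely more on vimentin, and keratin patterns are used in pathology to separate luminal from basal breast cancers.

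The libraries held between 36979221 and 38799331 counts. Within each group every library differed from the others by more than sampling noise, with a chi-square of at least 3.94 per degree of freedom. All gene symbols are in mouse style although the labels give a human line, and Krt42 and Krt90 equal no current human symbol. Of the 22989 rows, 4650 have names of Gm and a number and 1129 have names ending in Rik, both forms given to mouse genes. The row names are thus those of a mouse annotation, which the sources used here do not state. Whether the keratin counts are of human RNA was not tested. The table has no positions, so none are given. It holds 0 rows named LINC00115, so the knockdown could not be checked and each direction rests on the labels. The 8 genes listed as present in MDA-MB-231 had at least 3388 counts in every library, vimentin (Vim) among them with 126885 to 145878. These counts cannot tell RNA of that line from mouse RNA. Of the genes listed as low in that line, Epcam had 0 to 5 counts and Pgr 0 to 3, Esr1 had 24 to 29 in the control and 82 to 105 in the KD libraries, and Erbb2 had 592 to 1061.

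Control replicate 3 stood apart in its keratins and is therefore described before the comparison. It held 238 counts of Krt4 and 92 counts of Krt5, and each of the other 5 libraries had 0 counts of both. Krt13, the partner of Krt4, had 500 counts in this library, 61 and 40 in control replicates 1 and 2, and 36, 38 and 46 in the KD libraries. Krt14, the partner of Krt5, had 192 counts there, 7 and 30 in the other controls, and 31, 28 and 19 in the KD libraries. Both members of both partnerships were thus highest in the same library.

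Krt76, a type II keratin of the hard palate and other oral lining, followed the same pattern, with 6, 16 and 166 counts in the control and 6, 9 and 1 in the KD libraries. Krt24, a type I keratin, had 1, 0 and 47 counts in the control and 0, 1 and 1 in the KD libraries. The share of all counts of a keratin that fell in control replicate 3 was 100% for Krt4 and Krt5, 94.0% for Krt24, 81.4% for Krt76, 69.3% for Krt13 and 62.5% for Krt14. Among the 29 keratins, 7 had over 50% of at least 10 counts in a single library. The seventh was Krt90, with 0 counts in each control and 10, 2 and 6 in the KD libraries.

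The excess covered some stratified keratins and not others. Krt16 and Krt17, which keratinocytes make under stress and in wounds, had no such excess, with 380, 194 and 302 counts of Krt16 and 24, 27 and 28 counts of Krt17 in control replicates 1 to 3. Krt10, the early differentiation keratin of epidermis, had 71, 90 and 95 counts in the controls and 90, 47 and 59 in the KD libraries, and its partner Krt1 had 2 counts in control replicate 3 and 0 elsewhere. The simple epithelial keratins of this library were level with those of the other controls. Krt8 and Krt18 together had 597 normalized CPM (counts scaled to the TMM-normalized library total) in control replicate 3, and 599 and 608 in the others.

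**Figure D1:**
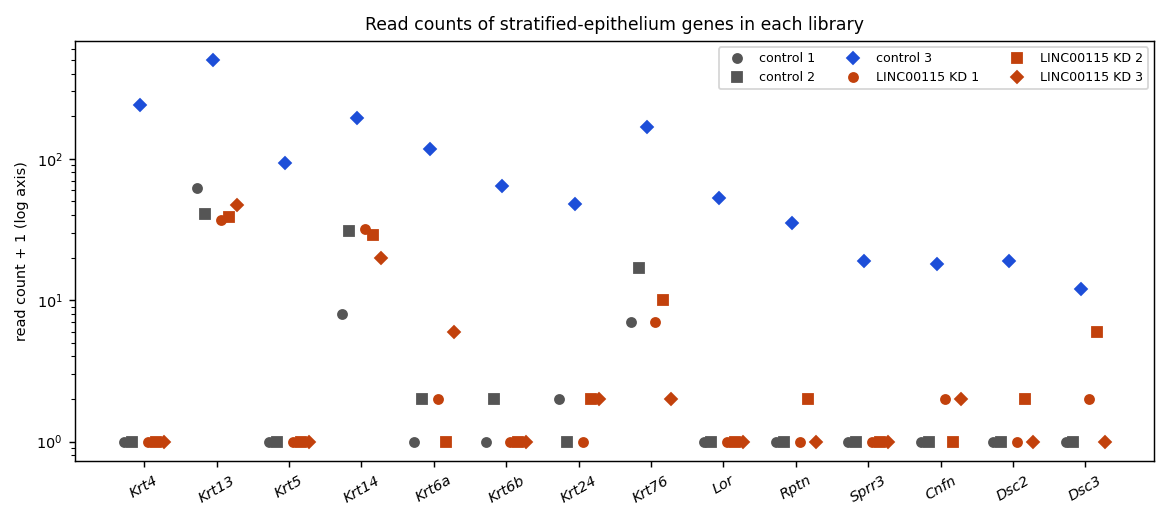
Read counts plus 1 (log axis) of 14 genes of stratified epithelium in each of the 6 libraries, with control replicate 3 in blue, the other controls in grey and the KD libraries in orange. The blue points are the highest for every gene shown, from 11 counts of Dsc3 to 500 of Krt13, and several genes were at 0 in every other library.

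Genes outside the keratin pattern stood out in the same library. When all 22989 rows were searched for genes with at least 40 counts in a library and over 5 times the count plus 1 of any other library, a rule set after the counts were seen, 10 genes were found in control replicate 3, 1 in KD replicate 1 and 0 in each of the other 4 libraries. The 10 genes were the 6 keratins Krt4, Krt5, Krt13, Krt14, Krt24 and Krt76, the left-out rows Krt6a (117 counts, against 0 to 5) and Krt6b (63 counts, against 0 to 1), loricrin (Lor), the main protein of the cornified envelope (52 counts, against 0), and the airway and salivary mucin Muc5b (85 counts, against 0 to 15). With a minimum of 20 or 80 counts, 11 and 7 genes were found in control replicate 3.

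Desmosome genes of stratified epithelium were also read there at low counts. The desmosomal cadherin Dsc2 had 18 counts in control replicate 3 and 0 to 1 in the others, Dsc3 had 11 against 0 to 5, and Dsg1a, Dsg3 and Dsc1 had 7, 6 and 6 against 0 to 1. The plaque protein plakophilin 1 (Pkp1) had 26 counts, against 0 to 10. Of the 16 desmosome genes in the table, 9 were highest in this library, as were 11 of the 22 cornified envelope genes and 14.5% of all rows with a count. Both lists were written with earlier results of these data known. Among the 11 were repetin (Rptn, 34 counts against 0 to 1) and Sprr3 (18 against 0), but 4 (Flg, Hrnr, Sprr1b and Lce1a1) had only 1 or 2 counts there, and Tgm1 had 13 against 4 to 11. Trp63, the transcription factor that defines basal cells of stratified epithelia, was not among them, with 6, 15 and 11 counts in the controls and 34, 36 and 39 in the KD libraries.

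For the marker list of keratinocytes, 6 of 9 genes were highest in control replicate 3, and the summed level was 12.8 CPM there, the highest of the controls, whose lowest was 3.50, against 4.36 to 5.66 in the KD libraries. That list shares Krt1, Krt5, Krt10 and Krt14 with the keratins, and all of these are among the 6. The rest of the 6 are Dsg3 and Lor, also given above, so the list adds no further gene. Whether other cells had a part in these counts was not tested. Because of this library, keratin results below that change without it are also given without it.

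The comparison of KD with control libraries asks which keratins differ with the knockdown. Of the 29 keratins, 10 passed edgeR's low-count filter and were tested among 13497 genes with edgeR's quasi-likelihood model, with p-values adjusted over all of these genes (Benjamini-Hochberg), and 19 were too low to be tested. A gene is said to have risen or fallen at an adjusted p-value under 0.05, and is called where its fold change was also over 2. Of the 10 tested, 6 rose, 2 fell and 2 passed in neither direction. In all, 36.7% of the genes tested rose and 36.7% fell. Called were 4 keratins higher (Krt7, Krt16, Krt17 and Krt80) and 2 lower (Krt13 and Krt14), where 10.2% of all genes tested were called higher and 9.98% lower. The 6 keratins that rose were those with no overlap between the groups, a pattern that 37.8% of the genes tested showed in that direction, and 0 of the 10 were lower without overlap, against 37.8% of all genes. Without control replicate 3 the same 4 keratins were called higher and 0 were called lower. The median log2 fold change of the 10 was 0.77, and that of all genes tested was -0.0061. Krt7 passed the filter through its KD libraries, so these 10 do not stand for all 29 keratins.

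**Figure D2:**
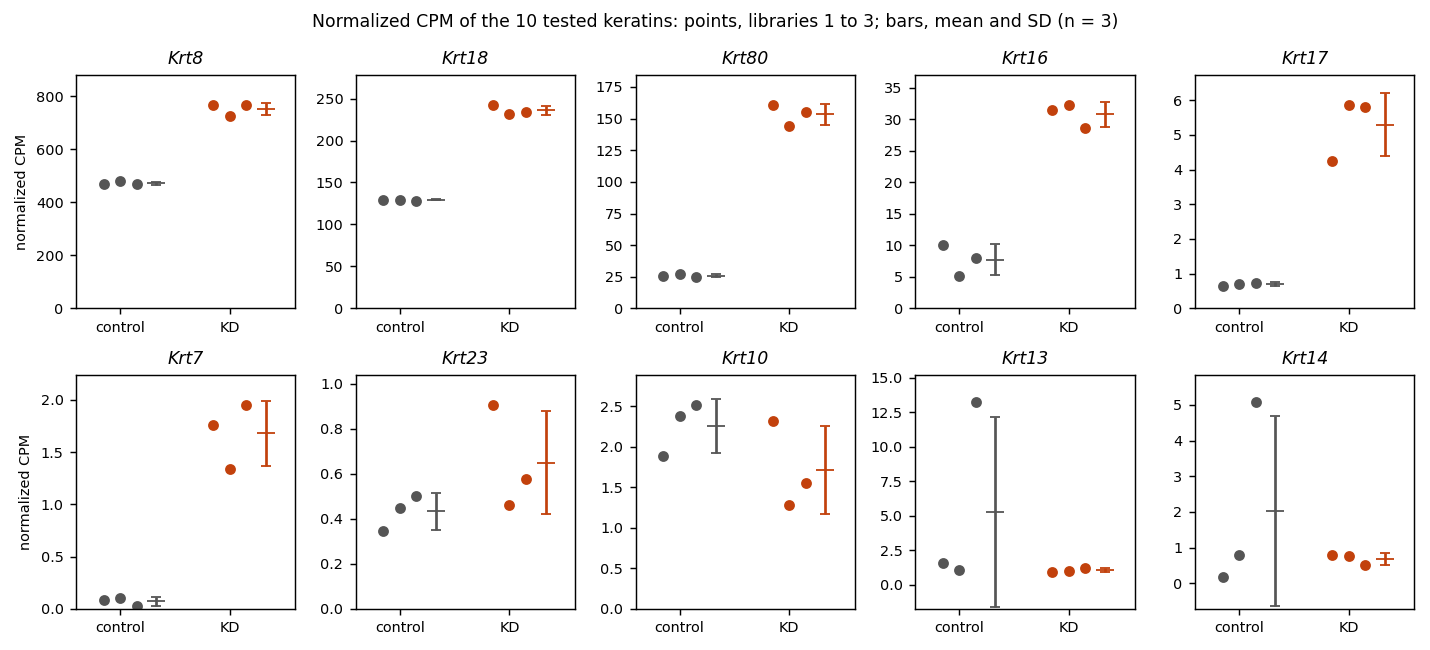
Normalized CPM of the 10 tested keratins, with 1 point per library in the order of the replicate numbers and the mean and SD of each group beside them (n = 3), on axes that differ between panels. The KD points lie above all control points for Krt8, Krt18, Krt80, Krt16, Krt17 and Krt7, while control replicate 3 alone sets the control mean of Krt13 and Krt14.

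Krt8 and Krt18, the keratin partners of simple epithelia and of luminal breast cells, both rose by less than 2-fold. Krt8 had 17687, 18075 and 17721 counts in the control and 29602, 26641 and 29110 in the KD libraries, or 472 ± 5.52 and 752 ± 23.2 normalized CPM (SD, n = 3 each). The groups did not overlap, and the log2 fold change was 0.67 (standard error, SE, 0.032, adjusted p = 1.38e-19), or 1.59-fold. Krt18 had 4880, 4890 and 4856 counts in the control and 9369, 8498 and 8892 in the KD libraries, or 129 ± 0.586 and 236 ± 5.60 normalized CPM. It rose 1.83-fold, a log2 fold change of 0.87 (SE 0.037, adjusted p = 6.67e-21). In a bulk sample, more cells of a type and more RNA per cell cannot be told apart.

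Since the proteins of this partnership are needed in equal amounts, the ratio of Krt8 to Krt18 counts was taken in each library. It was 3.62, 3.70 and 3.65 in the control and 3.16, 3.13 and 3.27 in the KD libraries. Every KD library lay below every control library, with a difference of -0.20 on the log2 scale. The exact permutation test, two-sided, gave p = 0.1, which is the smallest p that 3 libraries against 3 allow. Without control replicate 3 the difference was also -0.20 (exact permutation p = 0.2, the smallest that 2 against 3 allow). The ratio is one of counts and does not account for transcript length, so it says nothing of which RNA is the more abundant.

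Other simple epithelial keratins were low. Krt7, a type II keratin of ducts and glands, had 3, 4 and 1 counts in the control and 68, 49 and 74 in the KD libraries. It was called higher, with a log2 fold change of 4.51 (SE 0.56, adjusted p = 8.92e-09). The ratio of the summed counts, 191 against 8, was 23.8 with a 95% interval of 11.9 to 56.0, which covers counting error alone. Krt19, the usual type I partner of Krt7, was not tested, with 7, 3 and 4 counts in the control and 1, 2 and 3 in the KD libraries. Krt20, of gut and urothelium, had 0 to 7 counts in every library. Krt23, another type I keratin, had 13, 17 and 19 counts in the control and 35, 17 and 22 in the KD libraries, groups that overlapped (log2 fold change 0.58, SE 0.50, adjusted p = 0.291).

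Krt80 had the smallest adjusted p of the keratins. It is a type II keratin found near desmosomes in differentiating epithelia. Its counts were 963, 1026 and 945 in the control and 6216, 5299 and 5895 in the KD libraries, or 25.9 ± 1.13 and 153 ± 8.33 normalized CPM (SD, n = 3 each). The lowest KD library was thus far above the highest control. Krt80 rose 5.92-fold, a log2 fold change of 2.57 (SE 0.052, adjusted p = 2.52e-30), and lay between 2.52 and 2.62 over 13 alternative settings.

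Krt16 and Krt17, the type I keratins of stressed and wounded epithelium, also rose. Krt16 had 380, 194 and 302 counts in the control and 1217, 1184 and 1086 in the KD libraries. The controls varied more among themselves (7.74 ± 2.48 normalized CPM) than the KD libraries did in proportion (30.8 ± 1.93), and the groups did not overlap. The change was 3.97-fold, a log2 fold change of 1.99 (SE 0.12, adjusted p = 3.10e-16), and ranged from 1.77 without control replicate 2 to 2.23 without control replicate 1. Krt17 had 24, 27 and 28 counts in the control and 164, 215 and 220 in the KD libraries. It rose 7.56-fold, from 0.698 ± 0.0541 to 5.30 ± 0.915 normalized CPM (log2 fold change 2.92, SE 0.26, adjusted p = 2.62e-12). Krt14, Krt16 and Krt17 are close paralogs, as are Krt6a and Krt6b, and how reads that fit several of them were counted is not given in the sources used here. Krt6a and Krt6b, the type II partners of Krt16 and Krt17, had 0 to 5 counts in every KD library. They had 117 and 63 counts in control replicate 3 and 0 to 1 in the other controls.

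The 2 keratins called lower rested on control replicate 3. Krt13 had a log2 fold change of -2.32 (SE 0.50, adjusted p = 9.08e-05), with 5.30 ± 6.87 normalized CPM in the control and 1.06 ± 0.142 in the KD libraries. Without that library its log2 fold change was -0.34 (SE 0.43, adjusted p = 0.497). Krt14 had a log2 fold change of -1.55 (SE 0.57, adjusted p = 0.0159), with 2.02 ± 2.67 and 0.688 ± 0.164 normalized CPM. Without that library the sign turned, to 0.49 (SE 0.63, adjusted p = 0.497). The groups overlapped for both genes. Krt10 was not past the threshold with all libraries (log2 fold change -0.39, SE 0.29, adjusted p = 0.224) or without control replicate 3 (-0.31, adjusted p = 0.415).

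**Figure D3:**
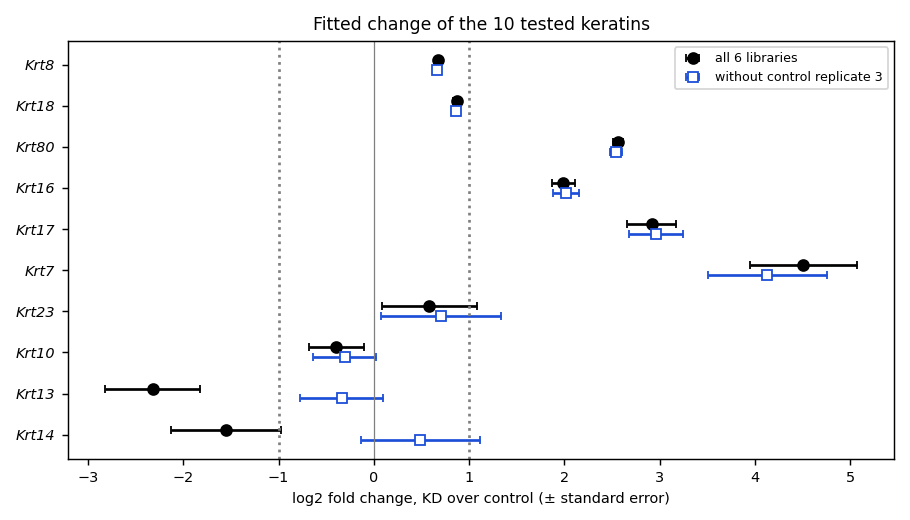
Log2 fold change of KD over control for the 10 tested keratins with its standard error, fitted to all 6 libraries (black circles) and without control replicate 3 (open blue squares), with dotted lines at a 2-fold change. The values of Krt13 and Krt14 move from -2.32 and -1.55 to -0.34 and 0.49, and those of Krt7, Krt16, Krt17 and Krt80 stay beyond the 2-fold line.

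Of the 19 keratins not tested, 6 reached 10 counts in a library. These were Krt4, Krt5, Krt24, Krt76 and Krt90, given above, and Krt78, a type II keratin, with 1, 13 and 9 counts in the control and 1, 1 and 3 in the KD libraries. The other 13 had 0 to 7 counts in every library and summed to 9 to 21 counts a library. They were Krt1, Krt15, Krt19, Krt20, Krt28, Krt31, Krt36, Krt39, Krt42, Krt77, Krt79, Krt81 and Krt84. They held the inner root sheath keratin Krt28 and every hair keratin among the 29 rows. A count of 0 at this depth allows up to 3 counts, and differences among these genes were not detectable.

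Summed over the 29 rows, the keratins had 652 ± 14.2 normalized CPM in the control and 1184 ± 34.7 in the KD libraries (SD, n = 3 each), and most of these counts were of Krt8 and Krt18. Their share of the keratin counts was 93.6%, 94.0% and 89.5% in the control and 83.2%, 83.6% and 83.6% in the KD libraries. In control replicate 3 the 24 keratins other than Krt8, Krt18, Krt80, Krt16 and Krt17 made 5.44% of keratin counts, against 0.763% and 0.896% in the other controls and 0.504% to 0.625% in the KD libraries. In the KD libraries Krt80 made 12.6% to 13.3%, against 3.75% to 4.20% in the controls.

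**Figure D4:**
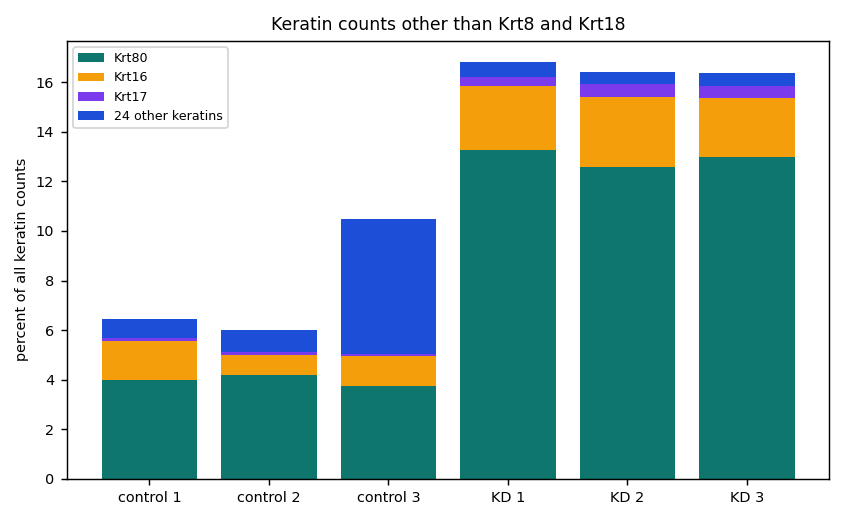
Percent of all keratin counts of each library that were not of Krt8 or Krt18, stacked by Krt80, Krt16, Krt17 and the other 24 keratins. The bars reach at most 10.5% in the controls, in replicate 3, where the 24 other keratins (blue) make 5.44%, and 16.4% to 16.8% in the KD libraries, where Krt80 (green) is 12.6% to 13.3%.

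The shares of type I and type II keratins were compared next. Type I rows made 22.8 ± 1.16% of keratin counts in the control and 23.4 ± 0.555% in the KD libraries (SD, n = 3 each), groups that overlapped. The overlap rested on control replicate 3, and without it the control mean was 22.2 ± 0.674% (n = 2), with every KD library above both controls. Without the main partnership, type I rows other than Krt18 summed to 19.2 ± 10.9 normalized CPM in the control and 40.6 ± 1.88 in the KD libraries, and type II rows other than Krt8 to 30.8 ± 6.74 and 155 ± 8.65. Control replicate 3 held 31.6 and 38.5 normalized CPM of these sums, the highest values of the controls, against 15.3 and 10.8 for the type I rows and 25.8 and 28.1 for the type II rows in control replicates 1 and 2.

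The genes of filament anchorage were taken from lists written with earlier results of these data known. The counts of each list below stand against 36.7% of all genes tested that rose and 36.7% that fell. Of 16 desmosome genes in the table, 7 were tested, 3 rose (42.9%, near the share of all genes) and 0 fell, with a median log2 fold change of 0.29. Periplakin (Ppl), which links filaments to the desmosome and the cell envelope, rose from 2049, 2567 and 2330 counts to 7210, 6648 and 6455, a log2 fold change of 1.55 (SE 0.054, adjusted p = 1.67e-23), and was the desmosome gene called. Plakoglobin (Jup) and plakophilin 3 (Pkp3) rose by 0.47 and 0.27 on the log2 scale. Desmoplakin (Dsp), the main link of keratin to the desmosome, had 21 to 48 counts in every library and was not past the threshold (log2 fold change 0.36, SE 0.44, adjusted p = 0.472). The desmosomal cadherins had at most 5 counts in any library but control replicate 3, and Dsg2, the form of simple epithelia, had 0 to 3 counts in every library.

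Of 11 hemidesmosome and plakin genes, all tested, 7 rose (63.6%) and 3 fell (27.3%, against 36.7% each way of all genes), with a median of 0.29, and 6 rose and 3 fell without control replicate 3. Epiplakin (Eppk1), a plakin that binds keratin filaments, rose from 33, 27 and 55 to 432, 304 and 327 counts (log2 fold change 3.20, SE 0.21, adjusted p = 2.35e-15). The laminin chain Lamb3 rose by 2.69 and the integrin Itgb4, the hemidesmosome's receptor for laminin, by 1.92 on the log2 scale. Plectin (Plec), which ties keratin to that integrin, rose by 0.61. Collagen XVII (Col17a1), of the same structure, fell from 237, 163 and 181 to 87, 96 and 79 counts (log2 fold change -1.15, SE 0.21, adjusted p = 8.43e-06), and the other chain of the receptor, Itga6, fell by 0.44 on the log2 scale. Members of the structure thus moved both ways.

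Among other intermediate filament genes, 12 of 17 were tested, with 4 higher and 4 lower (33.3% each way, near the 36.7% of all genes) and a median of -0.18. Vim rose by 0.13 on the log2 scale. Called were syncoilin (Sync, log2 fold change 1.07) higher, and synemin (Synm, -2.69) and Lmntd2 (-3.02) lower. Synm had 510, 454 and 417 counts in the control and 84, 82 and 48 in the KD libraries. Of 11 genes listed as keratin modifiers and adaptors, 10 were tested, with 7 higher and 3 lower (70% and 30%, against 36.7% each way of all genes) and a median of 0.30. The 7 include Krtcap2 and Krtcap3 (0.27 and 0.52 on the log2 scale), for which the sources used here give no role in keratin filaments. The small heat shock protein Hspb1, a chaperone of keratin filaments, was called higher (log2 fold change 1.47, 608, 625 and 700 counts in the control and 1732, 1824 and 1788 in the KD libraries), as was the ubiquitin ligase Trim21 (1.16). Fam83h, which directs casein kinase to keratin filaments, rose by 0.70.

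Of 16 epithelial transcription and splicing factors, 11 were tested, with 6 higher (54.5%), 3 lower (27.3%, against 36.7% each way of all genes) and a median of 0.29. Without control replicate 3, 6 were higher and 2 lower. Grhl2, an activator of epithelial junction genes, was called higher, from 140, 90 and 105 to 388, 304 and 430 counts (log2 fold change 1.74, SE 0.17, adjusted p = 3.10e-11). Trp63 and Grhl1 were called higher on few counts, with log2 fold changes of 1.76 and 2.75, the latter from 5, 2 and 1 to 18, 21 and 17 counts. Grhl1 passed the low-count filter through its KD libraries alone, and Trp63 was under 10 counts in control replicate 1. The direction of the tested genes thus does not stand for the list. Elf3, an ETS factor of differentiated epithelia, was called lower, from 344, 337 and 364 to 96, 72 and 63 counts (log2 fold change -2.18). Also lower, by less than 2-fold, were Gata3 (-0.85) and Foxa1 (-0.99, on 10 to 53 counts). The groups overlapped for Foxa1, which was close to the threshold (adjusted p = 0.0448, edgeR). The others that rose, by less than 2-fold, were Ehf (0.79), Klf4 (0.30) and Klf5 (0.29). The splicing factor Esrp1 had 0 to 4 counts in every library. E-cadherin (Cdh1) had 2, 1 and 3 counts in the control and 22, 30 and 31 in the KD libraries. The ratio of its summed counts was 13.8 (95% interval 6.08 to 38.7, which covers counting error alone). Cdh1 too passed the low-count filter through its KD libraries alone.

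**Figure D5:**
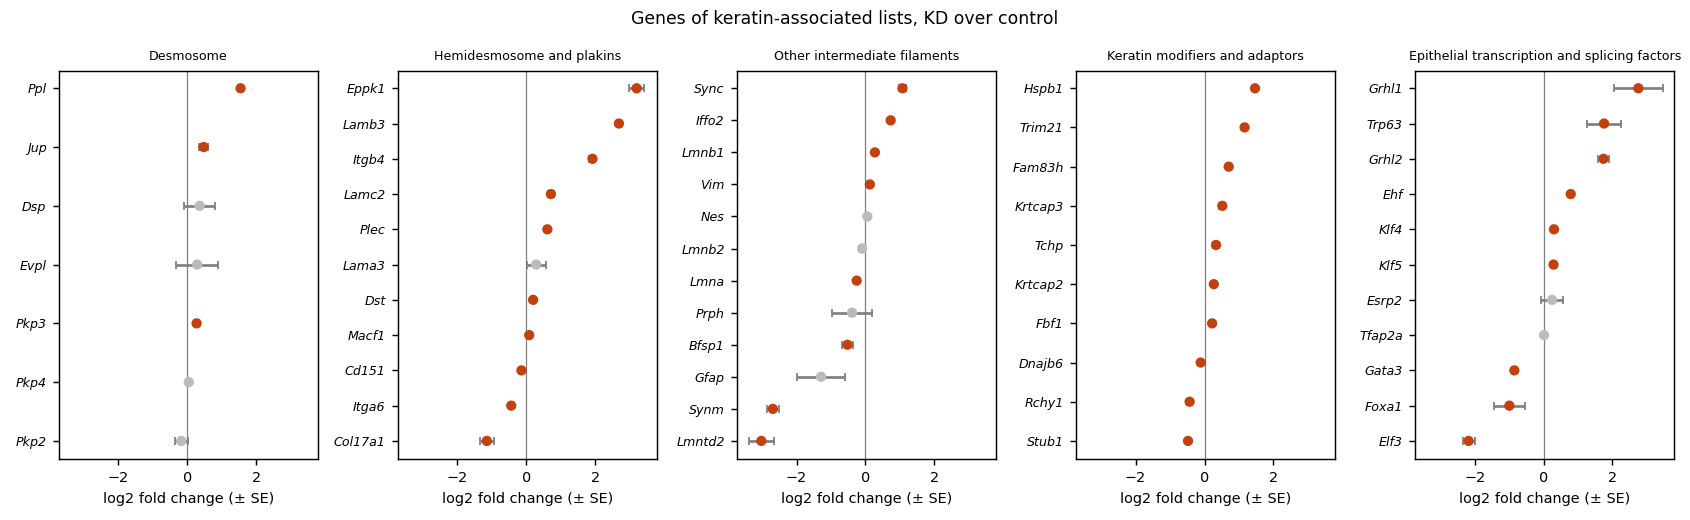
Log2 fold change of KD over control with its SE for the tested genes of 5 lists, with orange points at an adjusted p under 0.05 and grey points otherwise. Eppk1, Lamb3, Itgb4 and Ppl lie at 3.20, 2.69, 1.92 and 1.55 in the anchorage lists, while Synm, Lmntd2, Elf3 and Col17a1 lie at -2.69, -3.02, -2.18 and -1.15.

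Genes listed as markers of other epithelia also differed between the groups, and their values are given here. Of all rows with a count, 26.2% had every KD value above every control value and 25.4% the reverse. The marker lists below were written with earlier results of these data known. Their counts beside these shares are thus a description and not a test. Of 12 lung epithelium genes, 12 had their lowest KD value above their highest control value, and they summed to 78.4 to 88.9 CPM in the KD and 1.59 to 1.98 CPM in the control libraries. Their defining genes Scgb1a1, Sftpc, Sftpa1 and Sftpb were at 0 in every control. Of 12 kidney epithelium genes, 10 were higher and 1 lower by the same rule, with sums of 45.3 to 48.9 and 16.8 to 19.6 CPM, and Kap, Acsm2 and Umod were at 0 in every control. For luminal mammary epithelium, 7 of 10 genes were higher and 2, Krt19 and Prlr, were lower by that rule, with Epcam at 0 to 5 counts. Both lower genes were too low to be tested, as were Cldn3, Cldn4 and Cldn7 among the 7. These claudins had 0 to 1 counts in the controls and 1 to 12 in the KD libraries. For basal mammary epithelium, 4 of 6 genes were higher and 0 lower. Both mammary lists share members with the keratins. Of 9 leukocyte genes, 1 was higher (Lyz2) and 1 lower, and Cd3e was at 0 throughout. Whether cells of these types were present or had a part in the keratin differences was not tested.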

How the data were processed

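A deposited table of raw read counts per gene for 3 LINC00115 KD and 3 control libraries was analysed. The authors trimmed adapters and mapped reads with HISAT2. The paper's methods name hg19, while the submitters' processing notes name hg38 and list featureCounts and DESeq2. The name of the annotation and the strand setting are not given in the sources used here.

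Counts were analysed in R 4.3.3 with edgeR 4.0.16: filterByExpr (minimum count 10, minimum total count 15), TMM normalization (factors 0.9901 to 1.014), and quasi-likelihood F tests with group as the only term, adjusted over 13497 genes by the Benjamini-Hochberg method. Genes were called by the paper's thresholds, 0.05 for the adjusted p-value and 2 for the fold change. Standard errors (SE) were derived from F, as |log2 fold change|/√F. Ratios of summed counts were scaled to the normalized library totals, and their intervals are exact binomial at 95%. They and the limit of 3 counts cover counting error only. The ratio of Krt8 to Krt18 was tested by exact permutation with scipy 1.17.1.

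The keratins, gene lists and marker lists were chosen with earlier results of these data known. Named were every tested keratin, each other keratin with at least 10 counts in a library, and up to 3 called genes each way per list. Other genes were picked with their values known. Tested on simulated counts of the same depth, with 1 common dispersion (random seed 11), the pipeline called 200 of 200 well-counted genes changed by 4-fold or more and 0 others among 13495 genes. Changes in genes with few counts, and excesses in a single library, were not simulated. The simulation thus says nothing of such keratins. Alternatives were other normalizations and filters, each library left out, a block for the replicate number, DESeq2 1.42.0 and no fold-change threshold. List counts and keratin sums without control replicate 3 and other minimum counts in the search for genes of a single library were added after the data were seen.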

Additional observations from a re-analysis of the deposited data

How the results depend on the processing

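The 4 keratins called higher stayed between 3 and 5 over the alternatives (6 with no fold-change threshold), and were 4 whichever library was left out. The 2 called lower became 6 with no low-count filter (with Krt4, Krt5, Krt24 and Krt76, which rest on control replicate 3), and 1 each with at least 10 counts in every sample (Krt13), with the replicate block (Krt13) and with DESeq2's Wald test (Krt76). With each library left out they ranged from 0 to 3, and the 0 was without control replicate 3. Of 128 keratin fold changes under alternatives, 121 kept their direction and side of the thresholds, 6 were no longer called (of Krt13 or Krt14), and 1 reversed, that of Krt14 without control replicate 3. Over the 6 fits that drop a single library, Krt14 ranged from -2.09 to 0.49. Krt14 was also not called without KD replicate 2 (adjusted p = 0.0545, edgeR), without KD replicate 3 (0.076), with the block (0.249) or with DESeq2 (0.272), which did not call Krt13 either (0.0529). Over all genes, 903 were called higher with at least 10 counts in every sample, where 1381 were before, and 4960 lower and 4952 higher without a fold-change threshold, where 1347 were lower before. Same-numbered KD and control libraries did not deviate together (correlations from -0.018 to 0.0041), so no effect shared by the replicate numbers was seen. Whether the libraries were prepared in pairs is not given by the labels, and these correlations cannot settle it. Depth limits the 13 keratins under 10 counts in every library.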

Other observations

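The cornified envelope genes, which build the outer shell of keratinocytes, were mostly at few counts. Of 22 in the table, 11 had at most 3 counts in every library (3 of them none), 4 were tested and 3 were called higher in the KD libraries (Crct1, Sprr1a and Cdsn). Crct1 and Sprr1a passed the low-count filter through the KD libraries alone, so the direction of the tested genes does not stand for the list. Crct1 had 1, 0 and 3 counts in the control and 133, 101 and 110 in the KD libraries. The ratio of its summed counts was 85.9 (95% interval 33.2 to 317, which covers counting error alone). Sprr1a had 1, 1 and 2 counts in the control and 13, 27 and 21 in the KD libraries. Corneodesmosin (Cdsn), which holds cornified cells together, had 77, 59 and 60 counts in the control and 136, 183 and 219 in the KD libraries (log2 fold change 1.46, SE 0.23, adjusted p = 1.07e-06, edgeR). Lor, Rptn, Cnfn, Tgm3 and Sprr3, in contrast, had 52, 34, 17, 16 and 18 counts in control replicate 3 and 0 in the other controls, with 0 to 8 counts in the KD libraries.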
